A study of Mus musculus with 10 samples.

Results

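The 6 globin genes *Hbb-y*, *Hbb-bh1*, *Hba-x*, *Hbb-bs*, *Hbb-bt* and *Hba-a1* were followed as a measure of the blood captured with the cortical hem (CH). The erythroid enzyme gene *Alas2* was followed beside them. The genes were taken by symbol, and all 7 were found among the 52227 genes of the count table. The CH is a signaling center at the dorsomedial edge of the telencephalon, and its RNA was sequenced after laser capture at e13.5 from 5 wild-type embryos and from 5 that were *Lmx1a*-/-. Mutants were homozygous for *drJ*, an inactive allele of the LIM-homeodomain factor *Lmx1a*, and all animals were kept on a mixed C57Bl6, FVB and CD1 background with both sexes used. The CH was cut under bright light from frozen sections of the head, its borders were read from neighboring sections stained for Lmx1a, and the sections of 1 embryo formed 1 library, so that n is the number of embryos. No group received a treatment.

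Red blood cells reach the embryonic brain through its vessels, and their globin mRNA enters any tissue sample that contains a filled capillary. The first, primitive red cells come from the yolk sac and make the embryonic β-like globins *Hbb-y* and *Hbb-bh1* and the embryonic α-like globin *Hba-x*. Definitive red cells, made in the fetal liver, carry the adult globins *Hbb-bs*, *Hbb-bt* and *Hba-a1*, and mid-gestation is the time at which they begin to replace the primitive cells in the circulation. *Alas2* encodes the erythroid form of the first enzyme of heme synthesis.

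The β-like members lay on the minus strand of chromosome 7 (GRCm38) in the order *Hbb-bt* (103812524-103813996), *Hbb-bs* (103826534-103828096), *Hbb-bh1* (103841637-103843164) and *Hbb-y* (103851749-103853216). The α-like members lay on the plus strand of chromosome 11, with *Hba-x* at 32276400-32278116 and *Hba-a1* at 32283511-32284465, and *Alas2* was at 150547375-150570638 on the plus strand of chromosome X. All were annotated as protein-coding, and exonic reads were counted.

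The proximal promoters are shown because they hold the short elements by which erythroid genes of both globin clusters are usually described. RefSeq (GRCm38.p6) gave the 120 bases before the transcription start of 6 members, and these starts need not be those of the gene models above. They lie at chr7:103853208-103853327 (minus strand, *Hbb-y*), chr11:32276480-32276599 (plus strand, *Hba-x*), chr7:103827929-103828048 (minus strand, *Hbb-bs*), chr7:103813924-103814043 (minus strand, *Hbb-bt*), chr11:32283552-32283671 (plus strand, *Hba-a1*) and chrX:150547297-150547416 (plus strand, *Alas2*). Capitals mark the letters of 4 elements on either strand. These are the CACCC box, the CCAAT box, a TATA-type box spelled TATAA or else spelled ATAAA, and a site for GATA factors. The last was spelled AGATAA or, in other forms, spelled AGATAG, or spelled TGATAA, or spelled TGATAG. Overlapping matches share their capitals, as both spellings of the TATA-type box do in *Hba-x* and *Hbb-bt*.
Hbb-y: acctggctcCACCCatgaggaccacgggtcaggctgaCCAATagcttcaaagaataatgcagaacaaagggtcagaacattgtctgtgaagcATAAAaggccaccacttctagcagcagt
Hba-x: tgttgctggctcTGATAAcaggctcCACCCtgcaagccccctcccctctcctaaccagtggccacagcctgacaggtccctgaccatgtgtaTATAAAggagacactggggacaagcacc
Hbb-bs: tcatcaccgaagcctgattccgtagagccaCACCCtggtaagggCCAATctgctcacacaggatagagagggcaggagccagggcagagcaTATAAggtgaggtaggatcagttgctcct
Hbb-bt: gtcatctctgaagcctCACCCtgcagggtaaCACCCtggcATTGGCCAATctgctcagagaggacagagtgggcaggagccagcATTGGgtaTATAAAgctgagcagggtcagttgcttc
Hba-a1: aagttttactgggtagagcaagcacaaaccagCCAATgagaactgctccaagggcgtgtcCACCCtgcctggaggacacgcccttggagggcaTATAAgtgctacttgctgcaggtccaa
Alas2: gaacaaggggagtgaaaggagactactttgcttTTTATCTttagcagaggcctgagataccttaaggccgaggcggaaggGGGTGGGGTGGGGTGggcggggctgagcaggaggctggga

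All 6 windows held CACCC, which 31.7% of 32851 RefSeq promoter windows of the same length also held. In the 5 globins it lay on the coding strand, and in *Alas2* it was present in 3 copies on the opposite strand. CCAAT was found in 4 of the 6 windows against 21.3% of all windows, and *Hba-x* and *Alas2* were the ones without it. A TATA-type match occurred in 6 of 6 against 24.3% of all. In the 5 globins it began 27 to 29 bases before the start, whereas the match in *Alas2* was on the opposite strand and began 87 bases before it. GATA letters were matched in the primitive *Hba-x* (TGATAA, from 108 bases before the start) and in *Alas2*, against 12.8% of all windows. *Hbb-bs* and *Hbb-bt* shared part of their layout. CACCC and CCAAT began 90 and 76 bases before the start of *Hbb-bs* and 89 and 75 bases before that of *Hbb-bt*. *Hbb-bt* alone also had CACCC from 104 bases before the start, and CCAAT on the opposite strand from 80 and 36 bases. A match describes letters in the window and not a bound site.

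Library totals were 19145952 to 36462780 counts, and mitochondrial genes took 20.6% to 27.6% of them. The 7 members together took 0.0264% to 0.143% of a library. *Lmx1a* itself was at 71.2 ± 18.2 normalized CPM (SD, n = 5) in wild type and 114 ± 21.0 in mutants, and because *drJ* is a point mutation its count does not check the genotype. *Xist* was at 4399 to 5169 normalized CPM in wild-type embryos 2 to 5 and at most 1.15 in wild-type embryo 1 and the 5 mutants, so the sex of the embryos and the genotype are largely confounded. The only wild-type library with low *Xist*, wild-type embryo 1, was also the library that stood apart for blood, and results that rest on it are given with and without it. Of the CH markers that were tested, 6 of 14 were lower in mutants at an FDR of 0.1 and 1, *Lmx1a* itself, was higher. Of all genes tested, 2.29% and 1.72% were. Without wild-type embryo 1, 4 and 0 of the CH markers were.

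None of the 7 members passed an FDR of 0.1 in edgeR's quasi-likelihood test, a threshold that 4.02% of the 21664 genes tested passed. At an unadjusted p under 0.05, 5 of 7 members did, all 5 of them globins lower in mutants, where 8.7% of all genes tested were lower by the same criterion. All 6 globins had a lower mean in *Lmx1a*-/- CH, as had 50.6% of all genes, and *Alas2* had a higher one. The likelihood ratio test, DESeq2's Wald test and the newer dispersion method of the quasi-likelihood test each called 4 of 7 at this FDR. These 4 were *Hbb-y*, *Hbb-bh1*, *Hba-x* and *Hbb-bt*. Of all genes, the tests in that order called 805 lower and 555 higher, 976 and 790, and 663 and 519. The reported test called 497 and 373. The median log2 fold change of the 6 globins was -0.91, against -0.0049 for all genes tested, and without wild-type embryo 1 it was -0.56. In bulk tissue, fewer blood cells in the sample and less globin mRNA per blood cell cannot be told apart.

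**Figure D1:**
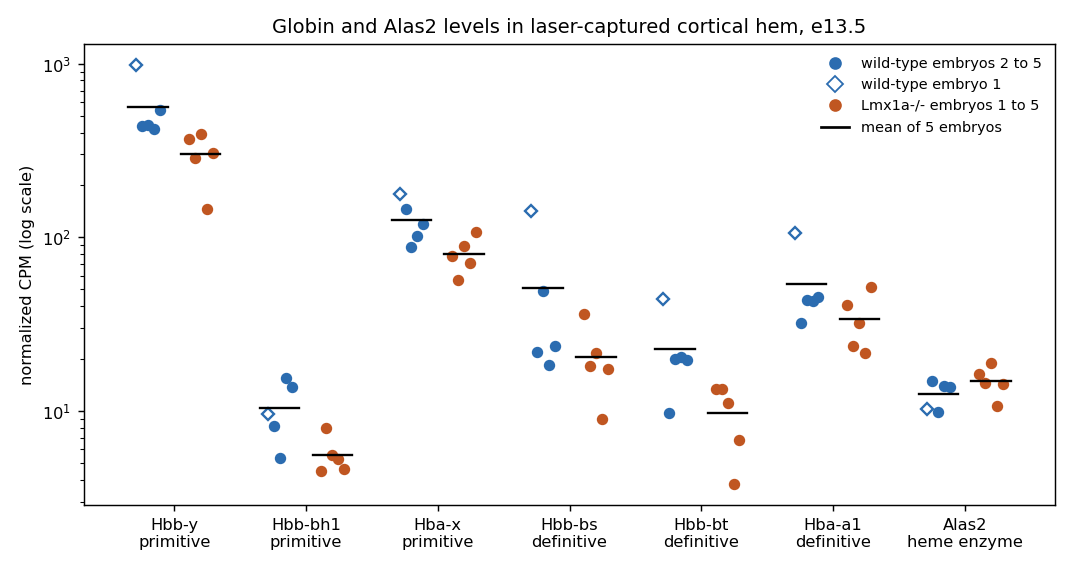
Normalized CPM (log axis) of the 3 primitive globins, the 3 definitive globins and *Alas2*, with 1 point per embryo and a black line for the mean of 5 embryos. The 5 mutant points lie below all wild-type points for *Hbb-y* and overlap them for the other members, and wild-type embryo 1 (open diamond) is the highest of 10 for 5 of the 6 globins.

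*Hbb-y*, the chief embryonic β-like globin at this stage, was the most abundant member. Its normalized CPM in wild-type embryos 1 to 5 was 983, 438, 443, 420 and 541. In *Lmx1a*-/- embryos 1 to 5 it was 367, 286, 395, 145 and 306. Every mutant lay below every wild-type embryo, which held for 2.27% of all genes tested in that direction, with mutant embryo 4 lowest and wild-type embryo 1 far above the others. The means were 565 ± 238 and 300 ± 97.1 (SD, n = 5 each), 1.88-fold higher in wild type, and the log2 fold change was -0.91 (SE 0.27, FDR 0.108). Without wild-type embryo 1 it was -0.62 (SE 0.22, FDR 0.221). It passed the threshold of 0.1 without wild-type embryo 3 (FDR 0.0918) or without mutant embryo 3 (FDR 0.0864).

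*Hbb-bh1*, the other embryonic β-like globin, which is strongest early in yolk sac erythropoiesis, was at a low level. Wild-type embryos 1 to 5 had 9.59, 8.21, 5.35, 15.4 and 13.7 normalized CPM. The mutants had 4.52, 7.93, 5.59, 5.26 and 4.63. The groups overlapped through wild-type embryo 3, which fell among the mutants, and wild-type embryo 4 rather than embryo 1 was highest. The means were 10.4 ± 4.08 and 5.59 ± 1.39, with a log2 fold change of -0.90 (SE 0.27, FDR 0.113), and the value without wild-type embryo 1 was -0.93 (SE 0.30, FDR 0.169). Without wild-type embryo 3 it was -1.08 and passed the threshold at an FDR of 0.0314. It also passed without mutant embryo 2, at -1.06 and an FDR of 0.0985.

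*Hba-x* encodes the embryonic ζ-like α-chain partner of these β-chains. It was at 178, 146, 87.8, 101 and 119 normalized CPM in wild-type embryos 1 to 5. The mutants had 77.8, 57.1, 88.9, 71.5 and 106. The highest mutant, embryo 5, lay above 2 wild-type embryos, and wild-type embryo 1 was the highest of all. The means were 126 ± 36.0 and 80.3 ± 18.6, with a log2 fold change of -0.65 (SE 0.19, FDR 0.107), the smallest FDR among the 7. It was -0.50 (FDR 0.222) without wild-type embryo 1. Leaving out wild-type embryo 3, wild-type embryo 4 or mutant embryo 5 brought it past the threshold, with FDRs of 0.0445, 0.0943 and 0.0836.

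Of the definitive globins, *Hbb-bs* and *Hbb-bt* are the adjacent adult β-globin genes of the reference haplotype. *Hbb-bs* had 142, 21.7, 48.9, 18.5 and 23.6 normalized CPM in wild-type embryos 1 to 5 and 35.9, 18.2, 21.5, 8.97 and 17.3 in the mutants. The groups overlapped widely, and wild-type embryo 1 alone held a level above 50. The means of 50.9 ± 52.2 and 20.4 ± 9.84 gave a log2 fold change of -1.32 (SE 0.53, FDR 0.225), which was -0.47 (SE 0.36, FDR 0.591) without wild-type embryo 1.

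*Hbb-bt* had 44.3, 9.65, 19.97, 20.5 and 19.6 normalized CPM in wild-type embryos 1 to 5. The mutants had 13.4, 13.4, 11.1, 3.77 and 6.75. Wild-type embryos 1, 3, 4 and 5 lay above all mutants, and embryo 2 lay among them. The means were 22.8 ± 12.8 and 9.68 ± 4.28, with a log2 fold change of -1.24 (SE 0.39, FDR 0.125). The value was -0.85 (SE 0.34, FDR 0.275) without wild-type embryo 1, and -1.44 with an FDR of 0.0832 without wild-type embryo 2.

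*Hba-a1*, an adult α-globin gene, had 106, 32.1, 43.8, 42.8 and 45.0 normalized CPM in wild-type embryos 1 to 5. The mutants had 40.9, 23.6, 32.1, 21.6 and 51.9. Apart from wild-type embryo 1, the wild-type values lay within the range of the mutants. The means were 53.9 ± 29.4 and 34.0 ± 12.6, and the log2 fold change of -0.66 (SE 0.31, FDR 0.313) was -0.27 (SE 0.23, FDR 0.648) when wild-type embryo 1 was left out.

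*Alas2* did not share the direction of the globins, and its level is not read here as a measure of captured blood. It had 10.2, 14.9, 9.85, 13.9 and 13.7 normalized CPM in wild-type embryos 1 to 5. The mutants had 16.3, 14.5, 18.9, 10.6 and 14.3. The groups overlapped, and wild-type embryo 1, rich in globin, was the second lowest of 10. The means were 12.5 ± 2.31 and 14.9 ± 3.03, with a log2 fold change of 0.26 (SE 0.18, FDR 0.512).

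**Figure D2:**
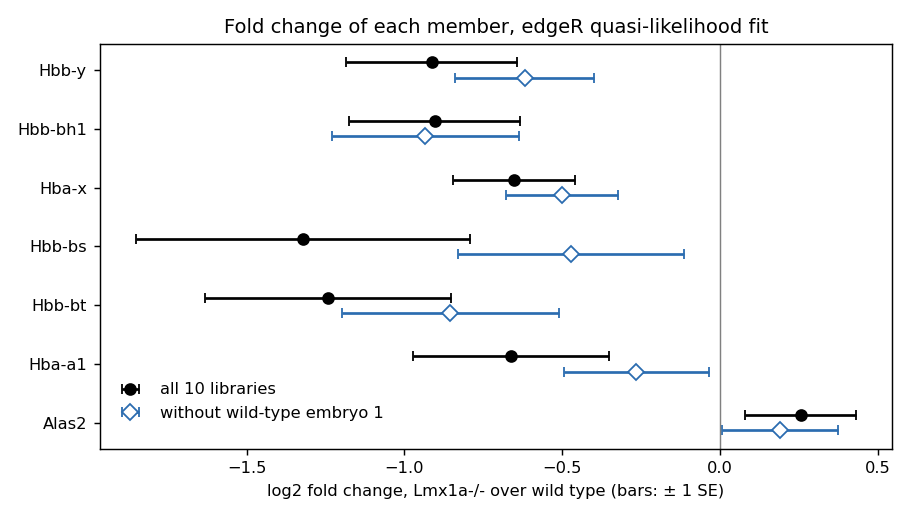
Log2 fold change of each member, *Lmx1a*-/- over wild type, with bars of 1 SE, from the fit to all 10 libraries (black) and without wild-type embryo 1 (open diamonds). The 6 globins lie below 0 in both fits, and the largest shift is that of *Hbb-bs*, from -1.32 to -0.47.

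Compared per kilobase of exon, so that genes of different length can be set side by side, the order over the 10 libraries was *Hbb-y*, *Hba-x*, *Hba-a1*, *Hbb-bs*, *Hbb-bt*, *Hbb-bh1* and *Alas2*. Their mean levels were 683, 110, 54.1, 46.4, 23.1, 13.1 and 5.71 normalized CPM per kb. *Hbb-y* was above *Hba-x* in 10 of 10 libraries, by 3.01- to 8.20-fold, and *Hba-x* was above *Hba-a1* in 10 of 10. The neighbors *Hba-a1* and *Hbb-bs* were in this order in 8 of 10 libraries and their ratio ran from 0.705 to 2.83, so their levels were not separated. *Hbb-bs* exceeded *Hbb-bt*, and *Hbb-bt* exceeded *Hbb-bh1*, in 9 of 10 libraries each. *Hbb-bh1* was above *Alas2* in 10 of 10, by as little as 1.09-fold. The α-like share of globin CPM per kb was 17.1 ± 2.30% in wild type and 20.5 ± 6.10% in mutants.

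The 6 globins summed to 1461, 656, 649, 618 and 762 normalized CPM in wild-type embryos 1 to 5. The mutants had 539, 406, 554, 256 and 493.5. Every mutant lay below every wild-type embryo, although the gap between mutant embryo 3 and wild-type embryo 4 was small beside the spread within groups. The means were 829 ± 358 and 450 ± 123, a ratio of 1.84, and without wild-type embryo 1 the wild-type mean was 671 ± 62.7 and the ratio 1.49. *Hbb-y*, the only globin whose groups were apart, made up most of the sum, at a mean of 565 in wild type and 300 in mutants. The order of the sums therefore largely repeats that of 1 gene. Because the sum is a score over chosen genes, it is described without a test.

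The primitive sum averaged 702 ± 268 in wild type and 386 ± 105 in mutants, with every mutant below every wild-type embryo and a ratio of 1.82 (1.52 without wild-type embryo 1). Most of this sum was also *Hbb-y*, and the groups overlapped for *Hbb-bh1* and *Hba-x*. The definitive sum averaged 128 ± 93.4 and 64.1 ± 21.2, and 2 of 5 mutants lay below all wild-type embryos. Its ratio of 1.99 was 1.35 without wild-type embryo 1, which alone had a definitive sum of 292 where the other wild-type embryos had 63.5 to 113.

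**Figure D3:**
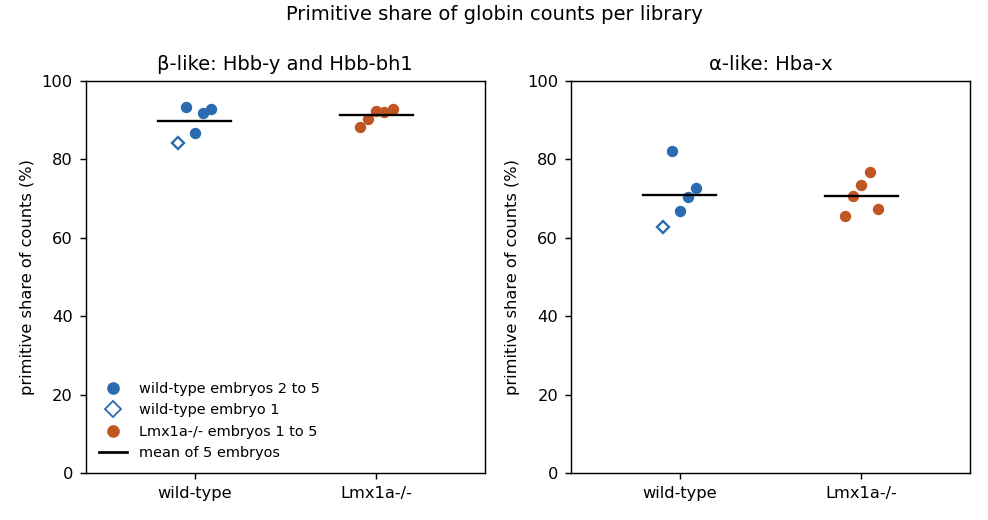
Primitive share of the β-like (*Hbb-y* and *Hbb-bh1*) and α-like (*Hba-x*) globin counts, in percent of counts and with 1 point per library and a line at the mean of 5. Wild-type embryo 1 (open diamond) has the lowest share in both panels, and the genotypes overlap.

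The balance of primitive and definitive globins was close between genotypes. Both words name genes here, and which red cells the counts came from was not tested. Primitive genes made 89.8 ± 4.08% of β-like counts in wild type (range 84.2% to 93.4%) and 91.2 ± 1.91% in mutants (88.3% to 92.8%). *Hba-x* made 70.9 ± 7.27% of α-like counts in wild type (62.7% to 82.0%) and 70.8 ± 4.57% in mutants (65.5% to 76.8%). In both chains the difference between genotype means was smaller than the SD within a genotype. If reads shared by near-identical adult genes were left out of the counts, the definitive counts are too low and these shares too high. The primitive share was lower among α-like than among β-like counts in all 10 libraries. Wild-type embryo 1 had the lowest primitive share of either chain, 84.2% and 62.7%, together with the highest globin level. Within the primitive β-like counts, *Hbb-bh1* took 0.967% to 3.54%, with the lowest share again in wild-type embryo 1. *Hbb-bt* took 36.3 ± 12.1% of definitive β-like counts in wild type and 32.2 ± 6.30% in mutants.

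Some of these definitive counts cannot be assigned to 1 gene by sequence alone. Of the 100-base windows of *Hba-a1* transcripts, 63.3% also occurred in *Hba-a2*, and 49.7% of those of *Hbb-bs* and 54.8% of those of *Hbb-bt* occurred in the other. No such window of *Hbb-y*, *Hbb-bh1* or *Hba-x* was shared with another globin. *Hba-a2* had 5 counts over the 10 libraries, against 434 to 2830 in each library for *Hba-a1*. Whether reads shared by this pair were listed under *Hba-a1* or discarded is not given in the sources used here. The background was mixed, and reads from β-globin haplotypes other than the reference were counted on *Hbb-bs* and *Hbb-bt* where they aligned.

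*Alas2* was also set against the globins. It was at 6.999, 22.7, 15.2, 22.5 and 18.0 CPM per 1000 globin CPM in wild-type embryos 1 to 5. The mutants had 30.3, 35.8, 34.1, 41.5 and 29.0. Every mutant lay above every wild-type embryo, with means of 17.1 ± 6.46 and 34.1 ± 4.97, and without wild-type embryo 1 the wild-type mean was 19.6 ± 3.64. The globin sum in the denominator already separates the genotypes while *Alas2* overlaps, so the ratio restates the globin difference, and it is given without a test. The same ratio for *Slc4a1*, which encodes the anion exchanger of the red cell membrane, was 13.8 ± 5.17 and 9.996 ± 7.29, with overlapping groups.

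**Figure D4:**
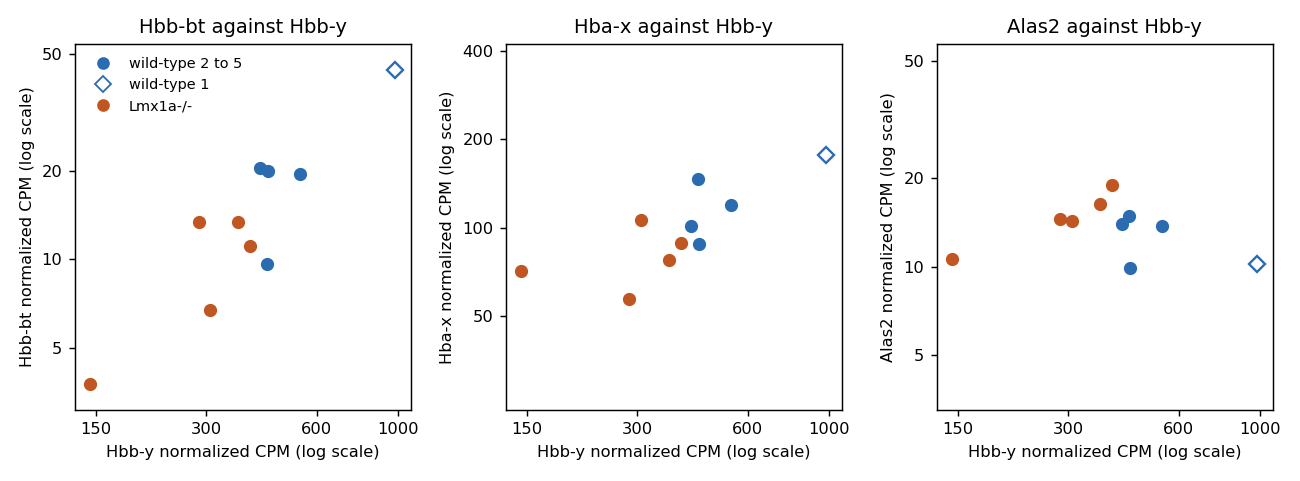
Normalized CPM of *Hbb-bt*, *Hba-x* and *Alas2* against that of *Hbb-y* in the same library (both axes log, 10 embryos). *Hbb-bt* and *Hba-x* are high where *Hbb-y* is high, with wild-type embryo 1 at the upper right, and *Alas2* shows no such order.

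Across the 10 embryos the log2 levels of *Hbb-bt*, *Hbb-bs*, *Hba-a1* and *Hba-x* were related to that of *Hbb-y*. Pearson's r with *Hbb-y* was 0.90 for *Hbb-bt* (permutation p = 0.00174, adjusted over 6 relations 0.0104) and Spearman's rho was 0.71 (permutation p = 0.0275, adjusted 0.055). For *Hbb-bs* r was 0.86 (permutation p = 0.00374, adjusted 0.0112) and rho 0.83 (permutation p = 0.00462, adjusted 0.0277). Both relations leaned on the extreme embryos, since r was 0.58 and 0.36 without mutant embryo 4 and wild-type embryo 1, the libraries farthest from the median of *Hbb-y*.

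For *Hba-a1* r was 0.83 (permutation p = 0.00594, adjusted 0.0119) and rho 0.66 (permutation p = 0.0431, adjusted 0.0647), and r was 0.35 without the same libraries. For *Hba-x* r was 0.76 (permutation p = 0.0116, adjusted 0.0174) and rho 0.76 (permutation p = 0.014, adjusted 0.0419), with 0.64 left without them. Centered on the mean of each genotype, r was 0.83, 0.83, 0.78 and 0.54 for *Hbb-bt*, *Hbb-bs*, *Hba-a1* and *Hba-x*. These points share the library and its scaling, and the differences between the r values were not tested. The permutations ignored genotype, so the p-values also carry the difference between genotypes.

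*Hbb-bh1* and *Alas2* showed no clear relation with *Hbb-y*. For *Hbb-bh1* r was 0.47 (permutation p = 0.17, adjusted 0.204) and rho 0.60 (permutation p = 0.073, adjusted 0.0876), with r = 0.50 without the farthest libraries and 0.0022 after centering on genotype. For *Alas2* r was -0.092 (permutation p = 0.813, adjusted 0.813) and rho -0.38 (permutation p = 0.279, adjusted 0.279), with r = -0.25 without the farthest libraries. The sign was not stable, with r = 0.31 after centering on genotype and 0.32 without wild-type embryo 1.

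The remaining globins were scarce. *Hbb-bh0*, an embryonic β-like pseudogene between *Hbb-bh1* and *Hbb-y*, averaged 0.510 ± 0.517 normalized CPM in wild type, with 1.38 in wild-type embryo 1, and 0.185 ± 0.111 in mutants (log2 fold change -1.43, FDR 0.446). *Cygb*, the cytoglobin gene of fibroblast-like cells, was at 3.41 ± 2.82 and 2.77 ± 0.960 (log2 fold change -0.31, FDR 0.821). *Hbq1b* and the neuronal *Ngb* had 21 and 59 counts over all libraries and were not tested. *Hbq1a*, *Hbb-bh2* and *Mb* had 0 counts in all 10, which allows up to 0.157 CPM in the shallowest library by 3 counts. Such limits cover counting error only.

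None of the 14 genes of heme synthesis, *Alas2* among them, passed the FDR of 0.1 in edgeR's quasi-likelihood test, and 2 had an unadjusted p under 0.05, as had 16.4% of all genes tested. These were *Slc25a37*, the mitochondrial iron importer of erythroid cells (26.0 ± 3.15 and 21.1 ± 2.09 normalized CPM, log2 fold change -0.31, FDR 0.193), and *Uros*, an enzyme of the pathway (6.28 ± 1.12 and 8.61 ± 1.99, log2 fold change 0.46, FDR 0.256). *Alad*, the enzyme after *Alas2*, was at 20.1 ± 1.53 and 17.0 ± 2.37 (FDR 0.342). The list summed to 177 to 214 normalized CPM in wild type and 178 to 201 in mutants, and its median log2 fold change was 0.0066. Most of its genes also serve heme synthesis outside red cells.

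Of 18 genes of the red cell membrane and its skeleton, 17 were tested and none passed the FDR. At an unadjusted p under 0.05, 4 were lower and 1 higher, against 8.7% and 7.66% of all genes tested, and 14 of 17 had a lower mean, with a median log2 fold change of -0.28 (-0.26 without wild-type embryo 1). *Slc4a1* was at 16.2, 12.7, 4.06, 10.3 and 11.8 normalized CPM in wild-type embryos 1 to 5 and at 3.13, 8.42, 7.97, 1.11 and 2.33 in mutants. Only wild-type embryo 3 lay among the mutants, and the log2 fold change was -1.27 (SE 0.49, FDR 0.210).

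*Rhag*, a Rh-complex gene of red cells, was barely detected at 0.654 ± 0.393 and 0.118 ± 0.0867 normalized CPM (log2 fold change -2.38, FDR 0.140). All mutants were below all wild-type embryos for *Rhag*, as for 2.27% of all genes tested. *Xk*, a membrane protein gene also active outside blood, was higher in mutants at 20.1 ± 5.04 against 30.2 ± 6.93 (log2 fold change 0.58, FDR 0.136). It passed the threshold without wild-type embryo 3 (FDR 0.0513) or without mutant embryo 3 (FDR 0.0718).

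Of 26 genes for erythroid factors and maturation, 18 had enough counts. A lower mean was seen for 10 of 18, and 2 passed the FDR as lower, against 2.29% of all genes tested. The median of the list was -0.16. *Lmo2*, a LIM-only bridging protein of hematopoietic and endothelial transcription complexes, is also a known marker of the CH, so its level is not a measure of blood alone. It had 174, 144, 94.8, 98.3 and 181 normalized CPM in wild-type embryos 1 to 5. In the mutants it had 25.3, 28.4, 19.5, 27.7 and 32.8. The groups were far apart, with a log2 fold change of -2.37 (SE 0.20, FDR 8.76e-05), and it was -2.28 (FDR 0.000163) without wild-type embryo 1. *Zfpm1*, the GATA cofactor FOG1, fell from 4.41 ± 0.822 to 2.41 ± 0.457 (log2 fold change -0.87, SE 0.23, FDR 0.0704). That call was lost when any of 7 embryos was left out, with an FDR of 0.153 without wild-type embryo 1.

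*Car2*, a red cell carbonic anhydrase, was at 4.93 ± 2.37 and 2.58 ± 0.689 (log2 fold change -0.94, FDR 0.180), and *Blvrb*, a biliverdin reductase of red cells, at 5.74 ± 1.11 and 3.27 ± 2.07 (log2 fold change -0.81, FDR 0.313). Several erythroid genes of the list had few counts, and they are named here after their values were seen. The erythroid master factor *Gata1* had 28 counts over the 10 libraries, *Gfi1b* 33, *Hemgn* 13, *Trim10* 63 and *Isg20* 35, *Car1* had 3 and *Trim58* 0. *Klf1* was tested, at 0.571 ± 0.609 and 0.622 ± 0.393 normalized CPM, whereas the transferrin receptor gene *Tfrc* (87.9 ± 9.52 and 92.3 ± 6.08) and *Myb* (34.5 ± 1.70 and 30.0 ± 6.50), both also active in other dividing cells, were well detected.

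The 10 genes whose log2 level was most like the summed globin level over the 10 libraries included *Gfra2* (r = 0.97), *Anpep* (0.96), *Col4a1* (0.95), *Fstl3* (0.95), *Gm11346* (0.95), *Col4a2* (0.94), *Lama1* (0.93), *Cox8a* (0.93) and *1700037H04Rik* (0.93). They were taken from 21657 genes, so high values of r are found among them in any case, and all share library and genotype with the globins. Without wild-type embryo 1, r was 0.89 to 0.97 for these 10, and 3 of them were again in the first 10. *Col4a1*, a chain of vessel basement membrane, was at 91.9 ± 25.4 and 46.9 ± 11.7 normalized CPM (log2 fold change -0.97, FDR 0.0253). Among erythroid genes the closest were *Car2* (r = 0.92, rank 12), *Zfpm1* (0.84, rank 118), *Blvrb* (0.76) and *Slc4a1* (0.75), and *Alas2* is itself a member.

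Markers of other cells that a blood vessel can bring were measured beside the globins. Platelet genes summed to 4.83 to 41.1 normalized CPM in wild type and 4.14 to 10.4 in mutants, with wild-type embryo 2, at 4.83, below 4 of the 5 mutants. A lower mean was seen for 7 of 8 tested, and 1 passed the FDR, against 2.29% of all genes tested. This was the chemokine gene *Ppbp*, at 10.9, 0.451, 0.824, 0.467 and 8.35 in wild-type embryos 1 to 5 and at most 0.598 in mutants (log2 fold change -4.47, FDR 0.0514), and its call was lost without wild-type embryo 1 (FDR 0.130) or without mutant embryo 2, 4 or 5. *Pf4*, the other defining platelet chemokine, was at 3.61 ± 3.05 and 1.15 ± 0.858 (FDR 0.252), and the integrin gene *Itgb3* at 2.81 ± 3.05 and 0.869 ± 0.602 (FDR 0.241). The median of the list was -1.40, and -0.78 without wild-type embryo 1. None of these defining markers was at 0 throughout.

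Endothelial markers summed to 147 to 300 normalized CPM in wild type and 94.7 to 161 in mutants. A lower mean was seen for 15 of 17, and 1 passed the FDR, against 2.29% of all genes tested. This was *Kdr*, a VEGF receptor gene that the study also counts among genes of the CH itself, so it is not independent of that tissue. It fell from 93.6 ± 26.2 to 38.3 ± 7.38 (log2 fold change -1.29, SE 0.18, FDR 0.00249), with the groups apart, and was at -1.15 (FDR 0.00559) without wild-type embryo 1. *Eng* was at 8.36 ± 4.58 and 4.27 ± 2.00 (FDR 0.207) and *Esam* at 3.55 ± 1.54 and 1.62 ± 0.912 (FDR 0.259). The list's median was -0.36, and -0.24 without wild-type embryo 1. Without *Kdr*, an alternative chosen after seeing the data, the sums were 71.9 to 173 in wild type and 61.2 to 112 in mutants, with means of 120.4 ± 40.0 and 96.5 ± 20.9, and 14 of 16 had a lower mean. Pericyte markers summed to 115 to 152 and 93.6 to 141, with 0 of 9 past the FDR in edgeR's quasi-likelihood test. Their median was -0.43. At an unadjusted p under 0.05, 3 of 9 were lower, against 8.7% of all genes tested. *Pdgfrb*, the receptor gene that marks pericytes, was at 29.9 ± 2.08 and 22.2 ± 4.11 with the groups apart (FDR 0.113). So was *Foxf2*, at 1.84 ± 0.469 and 0.874 ± 0.191 (FDR 0.111). Groups were apart in this direction for 2.27% of all genes tested.

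Macrophage and microglia markers, by contrast, had a higher mean in mutants for 11 of 15, with sums of 40.2 to 80.4 and 47.0 to 75.6 normalized CPM and a median of 0.28 (0.49 without wild-type embryo 1). Choroid plexus markers summed to 159 to 707 in wild type and 166 to 264 in mutants. All 13 tested had a lower mean, with a median of -1.65, and 4 passed the FDR as lower. Without wild-type embryo 1, 2 passed it as lower (2 to 7 over all embryos left out). Mesenchymal and meningeal markers summed to 429 to 1084 and 367 to 622. Of these, 9 of 14 had a lower mean, with a median of -0.25, and 3 passed the FDR as lower. Without wild-type embryo 1, 1 passed it as lower (0 to 3 over all embryos left out). Of all genes tested, 2.29% passed the FDR as lower.

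Markers of the CH and of the cortical neuroepithelium, the tissue that was cut and its neighbor, had medians of -0.43 and 0.40. In the latter, 8 of 8 had a higher mean, and 1 passed the FDR as higher, against 1.72% of all genes tested. This was the patterning gene *Emx2* (108 ± 23.1 and 169 ± 20.2, FDR 0.0356). Over all embryos left out, 1 to 3 passed it, with 3 without wild-type embryo 3 and 2 without mutant embryo 3. Wild-type embryo 1 was the highest of 10 libraries for the summed platelet (41.1), endothelial (300), pericyte (152) and macrophage (80.4) markers as it was for the globins (1461). The part that vessels, adjoining tissue or the sex of the embryo had in the globin levels was not tested.

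**Figure D5:**
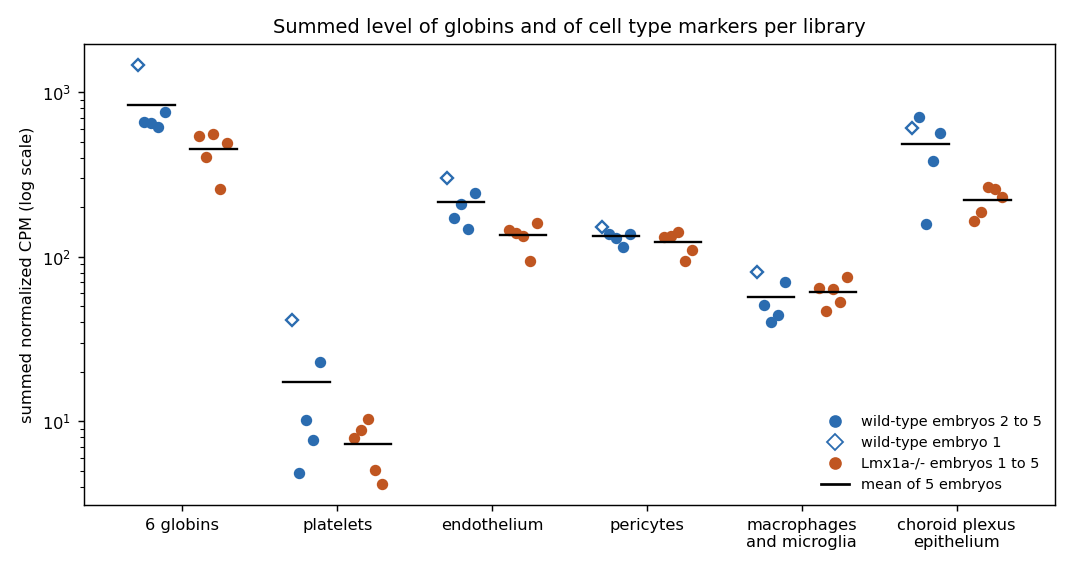
Summed normalized CPM (log axis) of the 6 globins and of markers of platelets, endothelium, pericytes, macrophages and microglia, and choroid plexus epithelium, with 1 point per embryo and a line at the mean of 5. Wild-type embryo 1 (open diamond) is the highest library for the globins (1461), platelets (41.1) and endothelium (300).

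With the mean log2 level of the endothelial list as a covariate, the log2 fold change of *Hbb-y* was -0.58 (SE 0.19, FDR 0.147), that of *Hba-x* -0.54 (FDR 0.199) and that of *Hbb-bh1* -1.03 (FDR 0.0897). For the adult genes it was -0.85 for *Hbb-bt* (FDR 0.217), -0.30 for *Hbb-bs* (FDR 0.687) and -0.28 for *Hba-a1* (FDR 0.611). This list includes *Kdr*. With *Xist* as a covariate, which compares wild-type embryo 1 with the mutants in effect, *Hbb-y* was at -1.71, *Hba-x* at -1.09 and *Hbb-bh1* at -0.82. The adult genes *Hbb-bt*, *Hbb-bs* and *Hba-a1* were at -2.28, -2.85 and -1.59. These values rest on 1 wild-type embryo. With the choroid plexus list, *Hbb-y* was at -0.49 (SE 0.43, FDR 0.832). Wild-type embryo 1 exceeded all 5 mutants, which share its low *Xist*, in 6 of 6 globins. The 4 wild-type embryos with high *Xist* have no mutant counterpart, so that for them genotype and sex cannot be told apart.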

How the data were processed

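According to the submitters' notes and the study's methods, the authors trimmed paired reads from SMARTER libraries (Trimmomatic), aligned them to GRCm38 (STAR 2.7.1a) and made counts per gene (HTSeq 0.11.2). The deposited values are these raw counts. How HTSeq treated strand and reads shared by near-identical genes is not given in the sources used here. Of 52508 rows, 281 exact repeats were dropped. Positions and exon lengths are those of GENCODE M21.

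A gene needed 10 or more counts in 3 or more libraries, and was then tested with edgeR 4.0.16 in R 4.3.3 (TMM scaling, trended dispersion, quasi-likelihood test, no covariate), with Benjamini-Hochberg adjustment over all genes tested and an FDR of 0.1. The tool and threshold follow the study, which used an earlier version of edgeR and did not name the test within it. The study reported more genes past the threshold than the 497 lower and 373 higher here. The calls here need not be those of the study. Normalized CPM are TMM-scaled, values are mean ± SD, and the SE is that of the log2 fold change. Correlations used log2 (normalized CPM + 0.5) and 100000 two-sided permutations over all 10 libraries, without regard to genotype. Alternatives included DESeq2 1.42.0, other scaling and filters, covariates and each embryo left out. The replicate number of the labels was tried as a block. Fits were tested on simulated data. Libraries of 1 genotype differed by more than sampling noise (chi-square per degree of freedom 18.1 to 58.6), so each counted as a replicate.

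The members, lists and tests were chosen with earlier results of these data known. Genes named are the members, other globins, per list the genes past the threshold and those with the smallest p, and the 10 genes most like the summed globin level. *Gata1* and the other untested maturation genes, *Klf1*, *Tfrc*, *Myb* and the erythroid genes ranked by likeness were named after their values were seen, as were the absent globins. Some genes the rule named are not reported here.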

Additional observations from a re-analysis of the deposited data

Results flagged for a closer look

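Dixon's criterion flagged 7 of 38 groups of 5 values examined, where chance gives about 1 in 20, or 1.9. In all 7, wild-type embryo 1 lay far from the other 4 wild-type embryos. The 38 and the 1.9 cover all groups examined and not only those that hold this embryo. These values are not independent, since the sums contain the single genes. *Hbb-y* was at 983 normalized CPM in this embryo and at 420 to 541 in the others. *Hbb-bs* was at 142 against 18.5 to 48.9, and *Hba-a1* at 106 against 32.1 to 45.0. The summed globin level was 1461 against 618 to 762, the primitive sum 1170 against 536 to 674, and the definitive sum 292 against 63.5 to 113. The 7 members took 0.143% of its counts, against 0.0627% to 0.0780% in the others.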

How the results depend on the processing

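The members called numbered 0 in the reported test, 4 with the likelihood ratio test, DESeq2 or the newer dispersion method, 3 without a low-count filter, 1 with filterByExpr and 1 each with *Xist* or the endothelial list as a covariate. They numbered 0 to 3 when each embryo was left out in turn. The embryo numbers did not pair the samples (r of same-numbered embryos -0.136 to 0.0332, 0 of 5 best with their own number). With that number as a replicate block, 2 members were called, *Hbb-y* (FDR 0.0507) and *Hbb-bs* (FDR 0.0784), and over all genes 353 were lower and 248 higher, against 497 and 373. Calls over all genes were 805 lower and 555 higher with the likelihood ratio test and 976 and 790 with DESeq2. The newer dispersion method gave 663 and 519, no low-count filter 519 and 348, and filterByExpr 506 and 377. As covariates, *Xist* gave 27 and 4, the endothelial list 501 and 363, and the choroid plexus list 17 and 29. An FDR of 0.05 gave 251 and 197. With an embryo left out, 261 to 604 genes were lower and 190 to 455 higher. Library size alone gave 427 and 430.

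Signs turned with the choroid plexus covariate for *Hba-x* (0.053), *Xk* (-0.0036), *C1qa* (0.022), *Ttr* (0.91), *Slc4a5* (0.024) and *Lhx2* (-0.033), and for *Cygb* with the replicate block (0.027), the endothelial covariate (0.23) and without wild-type embryo 3 (0.19, the range over embryos left out being -0.55 to 0.19). *Ttr* and *Slc4a5* are themselves in the choroid plexus list, so their values with that covariate are not independent of it. The cause of these turns was not tested. The primitive β-like share was 96.3% and 97.0% in wild type and mutants with *Hbb-bs* left out, which by construction removes definitive counts. The mutant globin sum was 603 with globins and mitochondrial genes left out of the totals, which makes every CPM larger.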
